A study of Mus musculus with 12 samples.

Results

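The CCAAT/enhancer-binding proteins (C/EBP) on the array were the 5 genes Cebpb, Cebpd, Cebpa, Cebpg and Cebpz, of 18217 genes with a symbol. They were chosen by name, through the transcript accession that the array files give for each probe, and 11 probes of the 41174 non-control probes belonged to them: 1 for Cebpb, 1 for Cebpd, 2 for Cebpa, 3 for Cebpg and 4 for Cebpz. No measured value served as a cutoff, but the members were chosen with earlier results of these data known. All 11 probes were well above background on all 12 arrays and 0 C/EBP spots were saturated. No probe matched Cebpe by accession.

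The cells were 3T3-L1, an established line of mouse preadipocytes, which become fat cells in culture once given hormones. Confluent cells were harvested untreated at 0 h, or 6 h after hormonal induction with 0.5 mM isobutylmethylxanthine (IBMX, which raises cyclic AMP), 1 µM dexamethasone (a glucocorticoid) and 5 µg/ml insulin, in a medium that also held fetal instead of newborn bovine serum. Each lysate was separated on a sucrose gradient, and 2 pools were made of it. The non-polysomal pool came from fractions 5 to 7, and the polysomal pool, which sediments with several ribosomes, from fractions 9 to 11. The 4 groups (0 h and 6 h, non-polysomal and polysomal) had 3 biological replicates each on 12 one-color arrays, and each of 3 slides held 4 arrays, 1 of each group. All samples came from 1 cell line, cycloheximide was present in the lysis buffer of every sample, and the hormones and the serum were given together, so their effects cannot be told apart. The sample descriptions and the methods number the day of confluence differently, so groups are named here by hours after induction.

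C/EBP proteins are transcription factors that bind DNA as dimers through a basic region and a leucine zipper. In differentiating preadipocytes C/EBPβ and C/EBPδ appear early and act ahead of C/EBPα and PPARγ, which maintain the adipocyte program. C/EBPγ lacks a strong activation domain and dimerizes with the other members, whereas the CCAAT-binding protein encoded by Cebpz is related by name and site but has no leucine zipper of this family. The mRNAs of Cebpb and Cebpa are also known for translational control, since different start sites within the same mRNA give proteins of different length.

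RefSeq promoter sequences (build GRCm38.p6) were at hand for 3 of the 5 genes, Cebpb, Cebpa and Cebpg, and were matched by symbol. They are printed as background, and their part in the measured levels was not tested. Each line gives the 250 bases before the annotated start, 5′ to 3′ on the strand of the gene. Capitals mark the letters TGACG (the core of the cyclic AMP response element), TATAAA and CCAAT on either strand, so that ATTGG is CCAAT and CGTCA is TGACG read on the other strand. The Cebpb stretch is chr2:167688665-167688914 on the plus strand, that of Cebpa is chr7:35119043-35119292 on the plus strand, and that of Cebpg is chr7:35056567-35056816 on the minus strand.
Cebpb: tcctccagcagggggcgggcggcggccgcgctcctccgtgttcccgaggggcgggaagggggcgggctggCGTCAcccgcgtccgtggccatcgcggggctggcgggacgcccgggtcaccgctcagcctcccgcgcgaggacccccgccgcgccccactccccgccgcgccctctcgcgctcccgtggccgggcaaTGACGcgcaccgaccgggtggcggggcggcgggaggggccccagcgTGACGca
Cebpa: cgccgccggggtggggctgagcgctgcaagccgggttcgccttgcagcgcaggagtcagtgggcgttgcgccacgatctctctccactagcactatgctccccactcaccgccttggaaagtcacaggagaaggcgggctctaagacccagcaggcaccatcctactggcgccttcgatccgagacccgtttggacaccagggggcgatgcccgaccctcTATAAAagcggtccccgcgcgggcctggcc
Cebpg: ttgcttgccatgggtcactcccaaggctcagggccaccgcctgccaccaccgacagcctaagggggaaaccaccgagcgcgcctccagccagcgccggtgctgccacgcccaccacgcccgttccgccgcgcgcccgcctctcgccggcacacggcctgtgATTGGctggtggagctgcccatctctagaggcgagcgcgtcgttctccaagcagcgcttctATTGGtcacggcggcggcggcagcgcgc

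The Cebpb stretch held 3 matches to TGACG, which began 180, 53 and 7 bases before the start, the first of them on the opposite strand. At least 1 TGACG was found in 17.8% of 32851 promoter stretches of the same length. Its G and C content was 81.6%, and it held 5 matches to GGGCGG, a motif of 32.7% of the promoters, but neither TATAAA nor CCAAT. The Cebpa stretch (66.4% G and C) held TATAAA once, beginning 30 bases before the start, a motif of 12.4% of the promoters. The Cebpg stretch (70.8% G and C) held CCAAT 2 times on the opposite strand, 89 and 28 bases before the start, and CCAAT was found in 33.8% of the promoters. The full cyclic AMP response element TGACGTCA (1.55% of promoters), the palindrome TTGCGCAA (0.164%), the looser TTGCNNAA of C/EBP sites (9.56%) and CACGTG (6.02%) were not matched in any of the 3 stretches. TGACGTCA contains TGACG, and TTGCGCAA is 1 form of TTGCNNAA. These are matches of letters on both strands and not measured binding. Cebpg and Cebpa are neighbours on chromosome 7, with 62726 bases between the annotated genes, and their 3 and 2 probes followed different courses across the groups.

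Levels are given as the log2 of the background-subtracted spot signal, scaled to RNA spike-ins that were added to every sample. A difference of 1 on this scale is a 2-fold change. Probes differ in how well they hybridise, so a level is compared only with the same probe in another sample. The question of the study was which mRNAs changed their association with polysomes after induction, and its M-value is the change from 0 h to 6 h in the polysomal pool minus the change in the non-polysomal pool. A probe counts here as called when its log2 difference was above 1 or below -1 and its p in limma, adjusted over all probes tested, was under 0.05. The 6 h polysomal arrays stood apart in their spike-ins, whose mean log2 signal lay between -0.48 and -0.21 relative to the average of all arrays, against 0.05 to 0.17 on the other 9 arrays. With this scaling the median probe had an M-value of 0.49 and a polysomal change of 0.54, and values relative to that median are given beside the main ones.

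The sample was checked against its label. All 14 probes of 8 preadipocyte or fibroblast markers (Dlk1, Pdgfra, Pdgfrb, collagens, Fn1 and Vim) were well above background on all 12 arrays. Of the 10 probes of 7 mature adipocyte markers, 6 were, those of Adipoq, Plin1, Cidec and Fabp4. On no array did the probes of Lep and Cfd stand well above background, and 1 of 2 Retn probes was on 3. None of the 3 epithelial marker probes was on any array. Of 8 macrophage probes 2 were well above background on all 12 arrays, both of Csf1r, and each probe of Ptprc and Adgre1 was on at most 1 array. The list also held Cd68, which no probe matched by accession. The 4 endothelial probes included 2 of Cdh5 that were well above background on 2 and 3 arrays, while Pecam1 and Tek were at background. The summed linear signal of the macrophage probes was 54.6 to 253 in the 0 h polysomal group and 153 to 166 in the 6 h polysomal group. The 2 Csf1r probes well above background rose by 1.78 and 1.36 in the polysomal pool (adjusted p = 9.9e-07 and 2.8e-07 by limma) and by 1.03 and 1.58 in the non-polysomal pool (adjusted p = 7.7e-05 and 2e-07). Another Csf1r probe (A_52_P570471), well above background on 4 arrays, had -0.92 and -0.71 in these pools (adjusted p = 0.52 and 0.73 by limma). The endothelial sum was 6.79 to 9.07 in the 0 h polysomal group and 35.0 to 51.6 in the 6 h polysomal group, but 7.07 to 60.7 in the 0 h non-polysomal group. The Cdh5 probe A_52_P248604 was well above background in the 6 h polysomal group only. Its mean log2 signal there was 4.67, against 1.05 in the 0 h polysomal group. In the 0 h and 6 h polysomal groups the sum of the mature adipocyte markers was 83620 to 99350 and 165000 to 171900. That of the preadipocyte markers was 720700 to 778800 and 1077000 to 1111000. Such linear sums follow the brightest probes. In the adipocyte list these were 2 Fabp4 probes, with 6 h polysomal means of 16.5 and 16.2. Adipoq, Cidec and Fabp4 rose in the polysomal pool, whereas Plin1 fell by 0.91 (adjusted p = 1.1e-04 by limma). In the preadipocyte list Vim and Dlk1 rose by 1.11 and 1.24 in that pool, and a Pdgfra probe (A_51_P345649) fell by 1.26. The part of these markers in the C/EBP results was not tested.

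Cebpb showed the largest change of the C/EBP genes after induction. It encodes C/EBPβ, an early activator of the adipogenic program. In the non-polysomal pool its log2 signal was 9.21, 9.55 and 9.32 at 0 h and 12.23, 12.14 and 12.16 at 6 h. In the polysomal pool it was 9.51, 9.62 and 9.43 at 0 h and 13.87, 13.87 and 13.89 at 6 h. Each 6 h array lay above each 0 h array in both pools, and the 0 h pools overlapped. The group means ± SD (n = 3 each) ran from 9.36 ± 0.17 (0 h non-polysomal) and 9.52 ± 0.09 (0 h polysomal), which did not separate, through 12.18 ± 0.05 to 13.87 ± 0.01 (6 h polysomal).

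The polysomal signal of Cebpb rose by 4.35 on the log2 scale (95% confidence interval 4.15 to 4.56, 20.5-fold, adjusted p = 6e-10 by limma), and 105 of 41173 probes rose further. Its non-polysomal signal rose by 2.82 (2.61 to 3.02, 7.04-fold, adjusted p = 1.4e-08), and 285 of 41156 probes rose further. In bulk samples, more cells that hold an mRNA and more of that mRNA per cell cannot be told apart. The M-value, which is the difference of these changes, was 1.54 (SE 0.13, adjusted p = 2.4e-05 by limma), or 1.05 above the median of all probes. Within the 3 slides the M-value of Cebpb was 1.34 to 1.66. The difference between the pools was 0.16 at 0 h (interval -0.05 to 0.36, adjusted p = 0.20 by limma) and 1.70 at 6 h (1.49 to 1.90, 3.24-fold, adjusted p = 4.4e-08). Without replicate 2 of the 0 h non-polysomal arrays the 0 h difference was 0.25 and passed (adjusted p = 0.03). It also depended on the scaling, since it was -0.73 with the 75th percentile and -0.76 with quantile normalization, with adjusted p of 1.7e-05 and 1.6e-05 by limma. With those scalings the 6 h difference was 0.38 and 0.36, so the 6 h value was the higher under each of them.

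**Figure D1:**
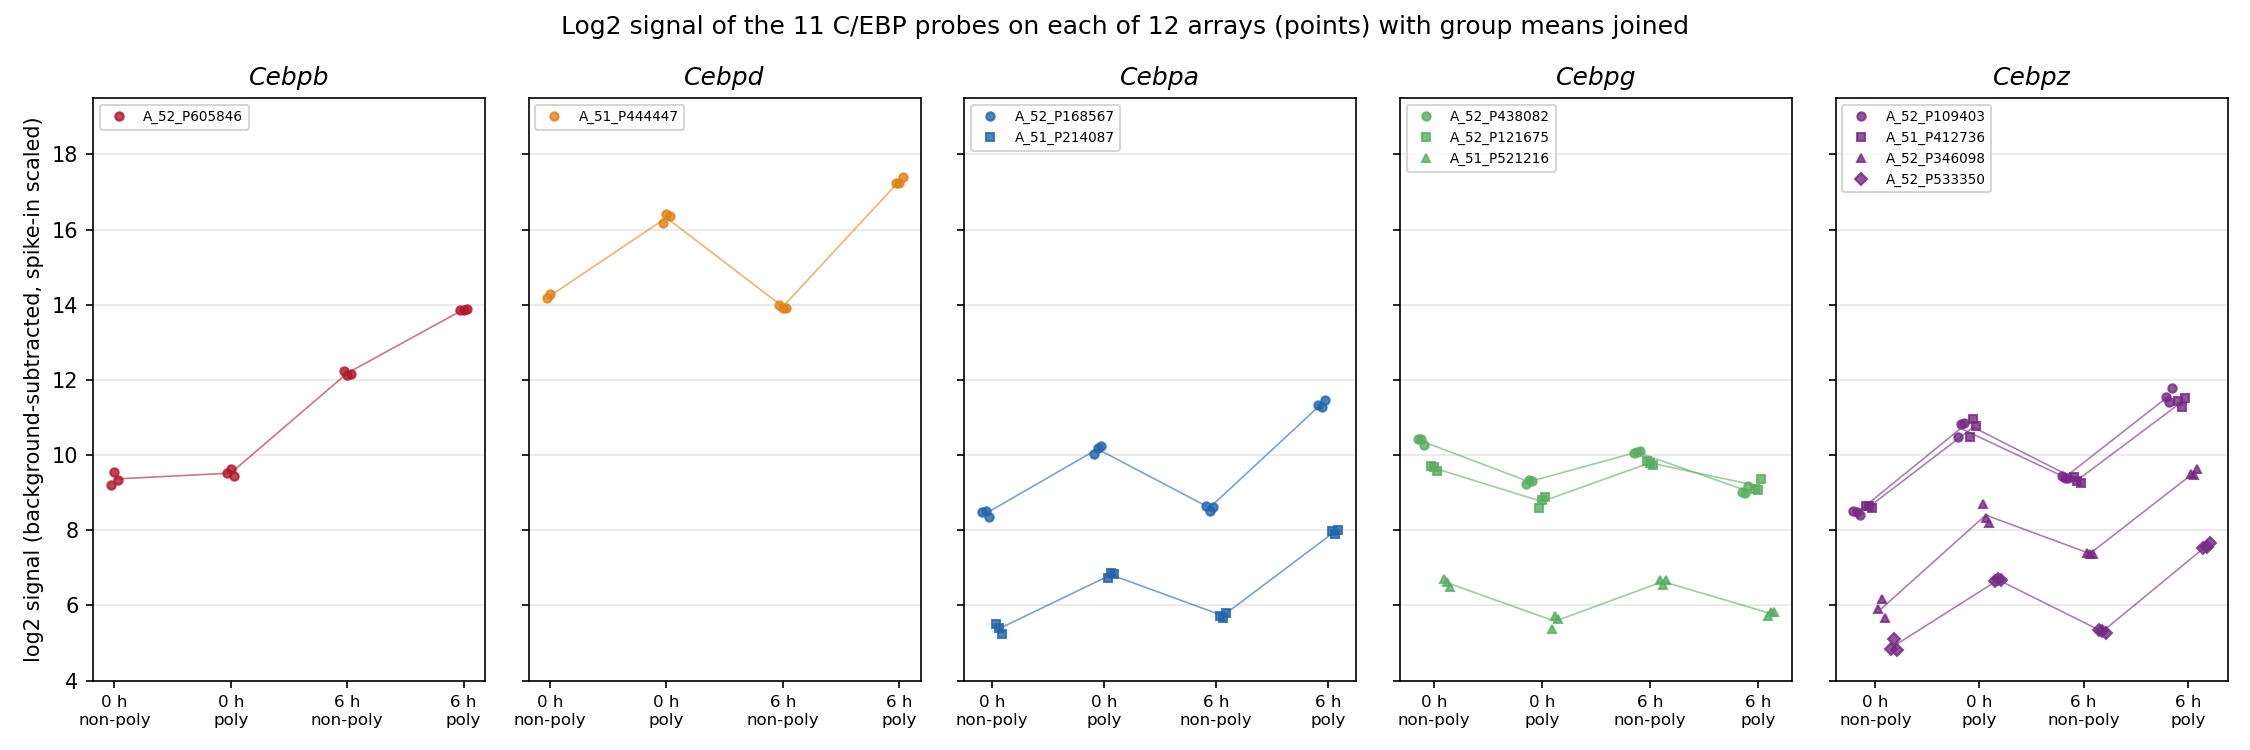
Log2 signal (background-subtracted and scaled to spike-ins) of the 11 probes in the 4 groups, in 1 panel per gene. Each point is 1 array, lines join the group means of a probe, and Cebpb is the gene whose 6 h arrays lie above its 0 h arrays by 2.82 (non-polysomal) and 4.35 (polysomal) on average.

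Cebpd encodes C/EBPδ, the other early member. Its signal was 14.18 and 14.29 in the 0 h non-polysomal pool, where the software marked the third spot as an outlier, which left n = 2. It was 14.00, 13.92 and 13.92 in the non-polysomal pool at 6 h. In the polysomal pool it was 16.17, 16.40 and 16.37 at 0 h and 17.24, 17.23 and 17.39 at 6 h. No groups overlapped, and the order from low to high was 6 h non-polysomal, 0 h non-polysomal, 0 h polysomal and 6 h polysomal.

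The polysomal signal of Cebpd rose by 0.97 (interval 0.77 to 1.17, 1.96-fold, adjusted p = 1.2e-05 by limma), but this direction turned with quantile normalization, to -0.32 (adjusted p = 0.0017). The non-polysomal signal fell by 0.29 (interval -0.51 to -0.07, adjusted p = 0.043), which passed the adjusted p in 13 of 25 alternative fits. When arrays or slides were left out in turn, it passed only without 0 h polysomal replicate 1 or 2, 6 h polysomal replicate 3, or 0 h non-polysomal replicate 3 (whose spot was not in use), with values between -0.36 and -0.23 and adjusted p up to 0.35. The M-value was 1.26 (SE 0.13, adjusted p = 1.3e-04), or 0.77 above the median of all probes, and was 1.26 and 1.19 within the 2 slides with all 4 spots. It was 0.23 with quantile normalization (adjusted p = 0.088 by limma). When a line was fitted through the spike-ins it was 1.20, below the median of all probes with that scaling (1.41). Cebpd had the highest polysomal over non-polysomal difference of the C/EBP probes at 6 h, 3.34 (10.1-fold), against 2.08 (4.23-fold) at 0 h.

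Cebpa encodes C/EBPα, which acts later in adipogenesis and restrains cell division. Its brighter probe (A_52_P168567) gave 8.48, 8.50 and 8.35 in the 0 h non-polysomal pool, 8.66, 8.52 and 8.61 in the 6 h non-polysomal pool, 10.03, 10.20 and 10.25 in the 0 h polysomal pool and 11.34, 11.29 and 11.46 in the 6 h polysomal pool. The polysomal arrays thus lay above all non-polysomal arrays at both times, and the 6 h polysomal arrays were the highest. The other probe (A_51_P214087) kept the same order of groups at a lower signal, from 5.25 to 8.01.

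The polysomal signal of Cebpa rose by 1.20 (2.30-fold, adjusted p = 9.9e-07 by limma) and 1.15 (2.22-fold, adjusted p = 1e-06) on its 2 probes. These rises passed the adjusted p but were under 1 with the 75th percentile (0.72 and 0.67) and with quantile normalization (0.58 and 0.77). Its non-polysomal change was 0.16 (interval -0.04 to 0.35, adjusted p = 0.20) on the brighter probe and 0.35 (0.16 to 0.53, adjusted p = 0.0063 by limma) on the other. The M-values were 1.05 (SE 0.12, adjusted p = 1.4e-04) and 0.81 (SE 0.12, adjusted p = 5.2e-04), or 0.56 and 0.32 above the median of all probes. Within the slides they ranged from 0.94 to 1.13 and from 0.61 to 1.04. With quantile normalization they were 0.49 and 0.31, the second with an adjusted p of 0.072 by limma. The non-polysomal rise of the second probe did not pass without slide 2 (adjusted p = 0.053) or slide 3 (adjusted p = 0.16), and was 0.14 (adjusted p = 0.28) on the authors' log2 values. The polysomal over non-polysomal difference was 1.72 and 1.44 at 0 h and 2.77 and 2.24 at 6 h.

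Cebpg encodes C/EBPγ, a partner for dimers. All 3 of its probes were lower in the polysomal than in the non-polysomal pool at both times, the opposite of Cebpa, Cebpd and Cebpz. The signs of these differences held under each other scaling tried, although 2 of the 3 Cebpg probes did not pass at 6 h when a line was fitted through the spike-ins (-0.14 and -0.13, adjusted p = 0.13 and 0.25 by limma). On the brightest probe (A_52_P438082) the non-polysomal signal was 10.44, 10.43 and 10.26 at 0 h and 10.04, 10.07 and 10.12 at 6 h. The polysomal signal was 9.24, 9.34 and 9.30 at 0 h and 9.03, 9.00 and 9.18 at 6 h. No groups of this probe overlapped, and every polysomal array lay below every non-polysomal one. The pool differences of the 3 probes were -1.09, -0.89 and -1.03 at 0 h (adjusted p = 5.2e-07, 2.8e-05 and 7.3e-06 by limma). At 6 h they were -1.01, -0.61 and -0.85 (adjusted p = 8.1e-07, 4.5e-04 and 3e-05 by limma).

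Over time the 3 Cebpg probes did not move alike. Probe A_52_P438082 fell by 0.22 in the polysomal pool (adjusted p = 0.031 by limma, and 0.057 with the replicate number as a block) and fell by 0.30 in the non-polysomal pool (adjusted p = 0.011). Probe A_52_P121675 rose by 0.42 in the polysomal pool (adjusted p = 0.0068 by limma) and had 0.14 (adjusted p = 0.37) in the non-polysomal pool. The third probe (A_51_P521216) had 0.21 and 0.03 (adjusted p = 0.11 and 0.87 by limma), and its polysomal value passed without replicate 2 of the 0 h polysomal arrays (0.28, adjusted p = 0.049), when a line was fitted through the spike-ins (0.94), on the authors' log2 values (0.25) and with normexp without spots of non-uniform background (0.30), and with the opposite sign, -0.28 (adjusted p = 0.0077), with the 75th percentile. The first of these signs turned to 0.26 (adjusted p = 0.0062) when a line was fitted through the spike-ins, and the second turned to -0.07 with both the 75th percentile and quantile normalization. The polysomal fall of the first probe did not pass without any 1 slide (adjusted p = 0.14, 0.25 and 0.058 by limma) or without replicate 2 or 3 of the 0 h polysomal or replicate 1 or 2 of the 6 h polysomal arrays (adjusted p up to 0.10), and its non-polysomal fall did not without slide 1 or 2 (adjusted p = 0.17 and 0.13). The polysomal rise of the second probe did not without slide 1 (adjusted p = 0.065). The M-values of Cebpg were 0.08, 0.28 and 0.18, with intervals of -0.17 to 0.33, -0.06 to 0.61 and -0.15 to 0.50 and adjusted p of 0.60, 0.16 and 0.35 by limma. All 3 turned negative with the 75th percentile and with quantile normalization, where the first probe passed (-0.35 and -0.26, adjusted p = 0.0098 and 0.031 by limma). When a line was fitted through the spike-ins all 3 passed as positive, at 0.64, 0.85 and 1.03 (adjusted p = 3.1e-04, 1.2e-04 and 1.8e-04), and the second passed at 0.32 (adjusted p = 0.032) with normexp without spots of non-uniform background. Relative to the median of all probes they were -0.41, -0.21 and -0.31.

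Cebpz encodes a CCAAT-binding protein whose family has a part in ribosome assembly. Its brightest probe (A_52_P109403) gave 8.50, 8.48 and 8.40 in the 0 h non-polysomal pool and 9.44, 9.39 and 9.39 in the 6 h non-polysomal pool. In the polysomal pool it gave 10.47, 10.82 and 10.84 at 0 h and 11.54, 11.41 and 11.78 at 6 h. No groups overlapped, and both pools were higher at 6 h. The other 3 probes had the same order of groups.

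All 4 Cebpz probes rose in both pools. The polysomal rises were 0.87, 0.67, 1.13 and 0.91, with adjusted p from 8.5e-06 to 7.5e-04 by limma. The non-polysomal rises were 0.95, 0.71, 1.46 and 0.38, with adjusted p from 2.5e-05 to 0.0049. The lowest of these, 0.38 (A_52_P533350), did not pass without slide 1 or 3 (adjusted p = 0.11 and 0.09), and was 0.24 (adjusted p = 0.081) when a line was fitted through the spike-ins, 0.22 (0.069) on the authors' log2 values and 0.10 (0.35) with normexp without spots of non-uniform background. The polysomal rise of the second probe (A_51_P412736) was 0.18 and 0.01 with the 75th percentile and quantile normalization (adjusted p = 0.072 and 0.95), and that of A_52_P109403 was 0.19 with quantile normalization (adjusted p = 0.054). For 3 probes the M-value was -0.08, -0.04 and -0.33, with intervals of -0.46 to 0.30, -0.41 to 0.33 and -0.82 to 0.15, and adjusted p of 0.72, 0.85 and 0.24 by limma, and both sign and test depended on the scaling. With the 75th percentile the 3 M-values were -0.51, -0.47 and -0.76 (adjusted p = 0.0066, 0.0075 and 0.034 by limma), and with quantile normalization -0.67, -0.62 and -0.95 (adjusted p = 8e-04, 0.0011 and 0.013), so that all 3 passed as negative. They were 0.32, 0.37 and 0.25 when a line was fitted through the spike-ins (adjusted p = 0.052, 0.029 and 0.33). The M-value of the fourth (A_52_P533350) was 0.53 (SE 0.12, adjusted p = 0.0076), or 0.04 above the median of all probes, and without slide 1, 2 or 3 it was 0.60, 0.46 and 0.52, which did not pass (adjusted p = 0.065, 0.056 and 0.093). It was 0.10 with the 75th percentile and 0.04 with quantile normalization (adjusted p = 0.52 and 0.73). All 4 were higher in the polysomal pool, by 1.76 to 2.49 at 0 h and by 2.07 to 2.28 at 6 h. In the RefSeq annotation (GRCm38.p6) the gene overlaps Cebpzos on the opposite strand by 2046 bases. Where the probes lie in relation to that overlap was not tested.

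**Figure D2:**
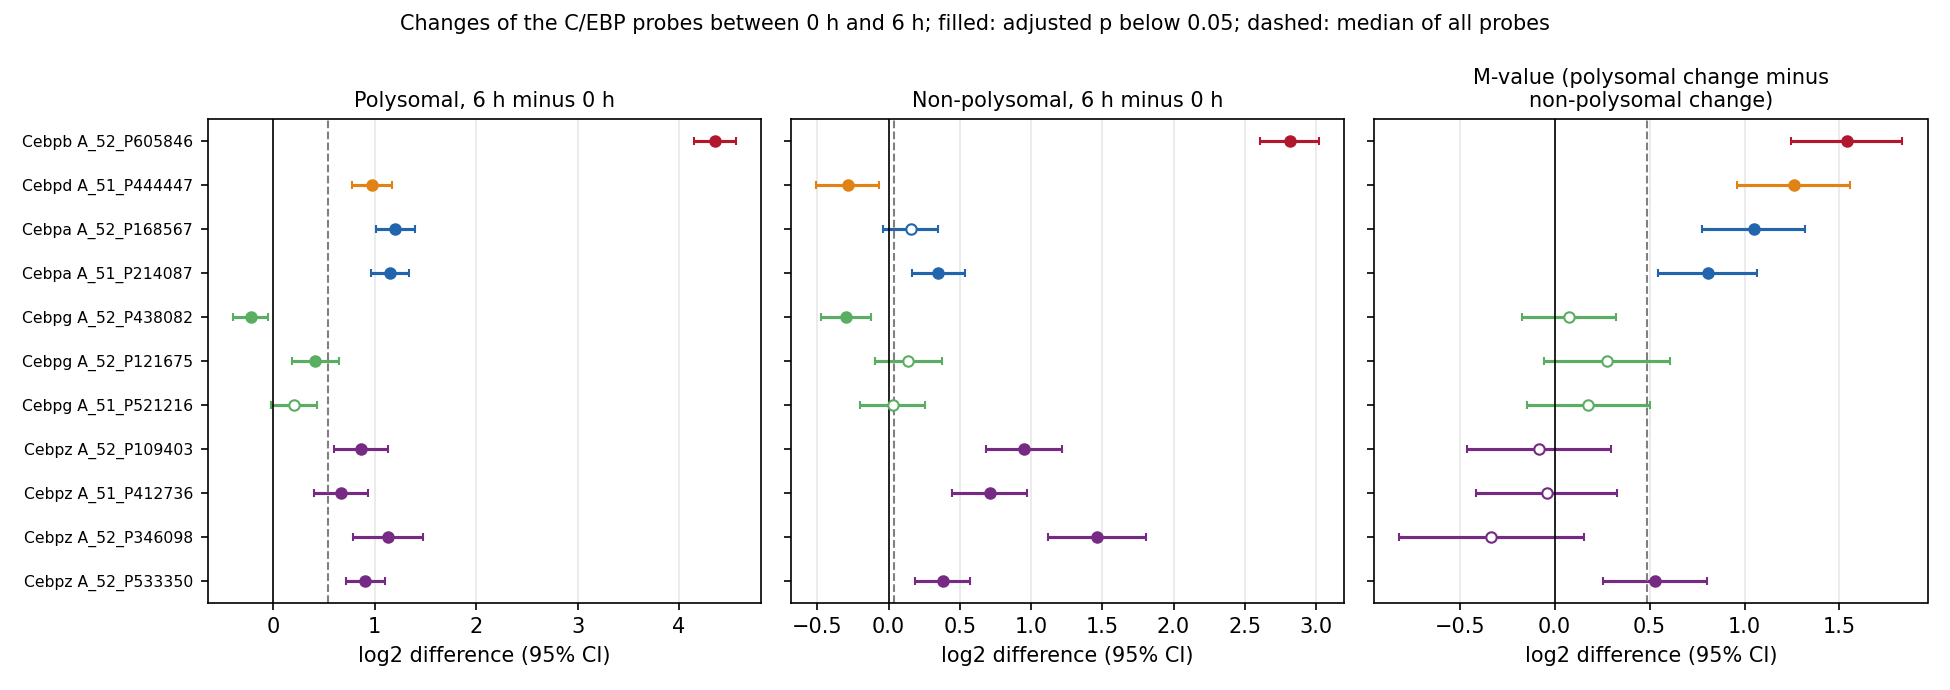
Log2 difference with its 95% confidence interval for each probe, in the polysomal pool (left), in the non-polysomal pool (middle) and as the M-value (right), filled where the adjusted p was below 0.05. The dashed line is the median of all probes (0.54, 0.04 and 0.49), and Cebpb lies farthest to the right in all 3 panels.

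By M-value 3 of the 11 C/EBP probes were called above 1 (Cebpb, Cebpd and 1 of 2 Cebpa probes), against 12.1% of all probes, and 0 below -1, against 1.31%. In all, 5 of the 11 passed the adjusted p of 0.05 in limma, against 36.1% of all probes, and all 5 had positive values, against 32.1%. The median M-value of the 11 was 0.28, below the median of all probes (0.49), and 5 of the 11 lay above that median. With other scalings the balance of calls over all probes was different: 3.75% above 1 and 3.48% below -1 with the 75th percentile, 3.08% and 3.82% with quantile normalization, and 63% and 0.148% when a line was fitted through the spike-ins. The C/EBP count was then 1, 1 and 6, and Cebpb was among the called probes each time, with M-values of 1.12, 1.13 and 1.80.

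In the polysomal pool over time 4 probes were called above 1, against 19.2% of all probes, and 0 below -1, against 5.01%. With the 75th percentile and quantile normalization 1 was called above 1, against 8.7% and 7.78% of all probes (9.89% and 9.33% were below -1), and when a line was fitted through the spike-ins 7 were, against 63.6%. At the adjusted p alone, 9 rose, against 50.6% of all probes, 1 fell, against 11.7%, and 1 did not pass. In the non-polysomal pool 2 were called above 1 (Cebpb and 1 Cebpz probe), against 8.09%, and 0 below -1, against 8.14%. There 6 rose, against 20.5% at the adjusted p alone, 2 fell, against 19.7%, and 3 did not pass. The 6 that rose were those of Cebpb, 1 of Cebpa and all of Cebpz, and these also rose in the polysomal pool. The polysomal comparison, the non-polysomal comparison and the M-value share arrays, so their values are given side by side and not as separate evidence.

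Between the pools at 0 h, 7 probes were called above 1 (Cebpd, Cebpa and Cebpz), against 27.4% of all probes, and 2 below -1 (Cebpg), against 9.81%. At 6 h, 8 were called above 1, with Cebpb added, against 37.4%, and 1 below -1, again of Cebpg, against 6.41%. All 11 probes passed the adjusted p in limma at 6 h, against 70% of all probes, and 10 at 0 h, against 52%, where Cebpb did not. With the 75th percentile the medians of all probes for these differences moved from 0.15 to -0.74 at 0 h and from 0.68 to -0.63 at 6 h. With it the C/EBP count at 6 h was 2 above 1 and 3 below -1, against 12.3% and 22.2% of all probes.

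**Figure D3:**
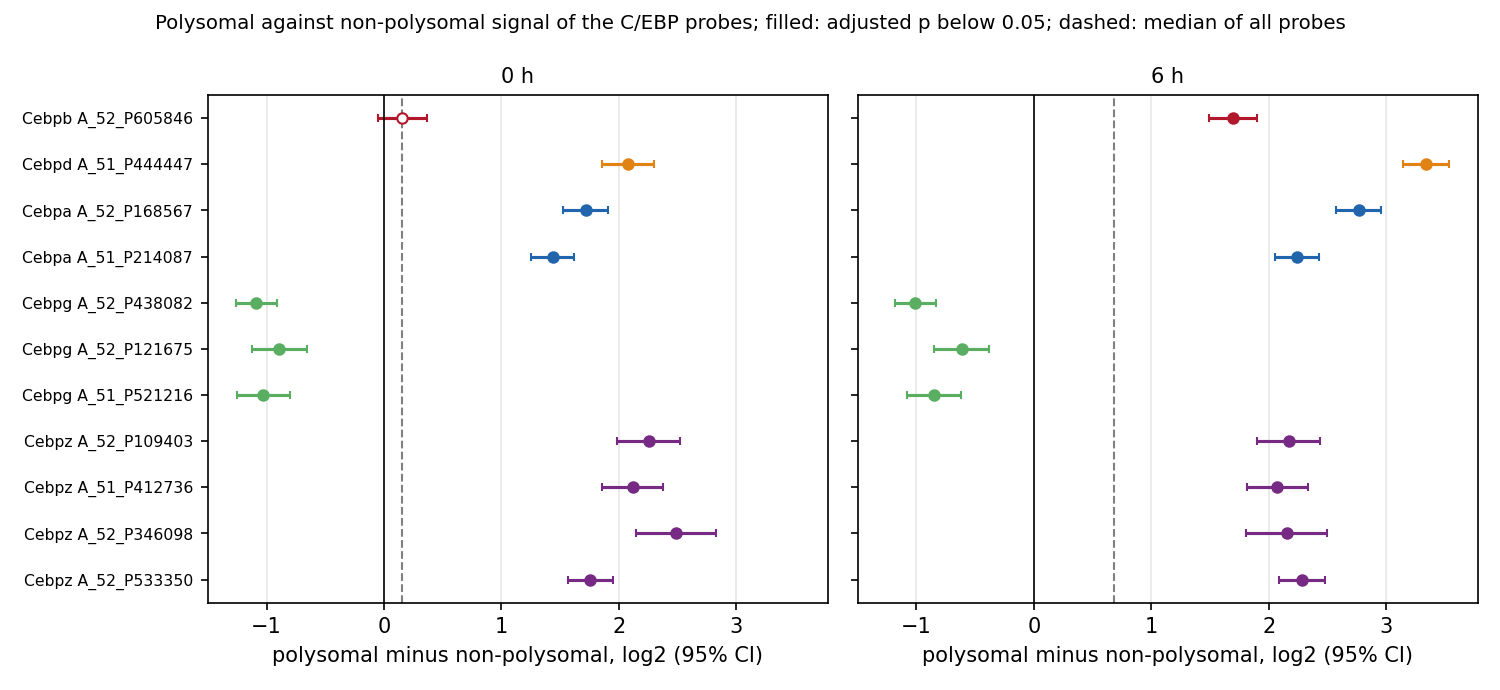
Polysomal minus non-polysomal log2 signal of each probe, with its 95% confidence interval, at 0 h (left) and 6 h (right), filled where the adjusted p was below 0.05. The dashed line is the median of all probes (0.15 and 0.68). The Cebpg probes lie left of 0 at both times, and Cebpb moves from 0.16 to 1.70.

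**Figure D4:**
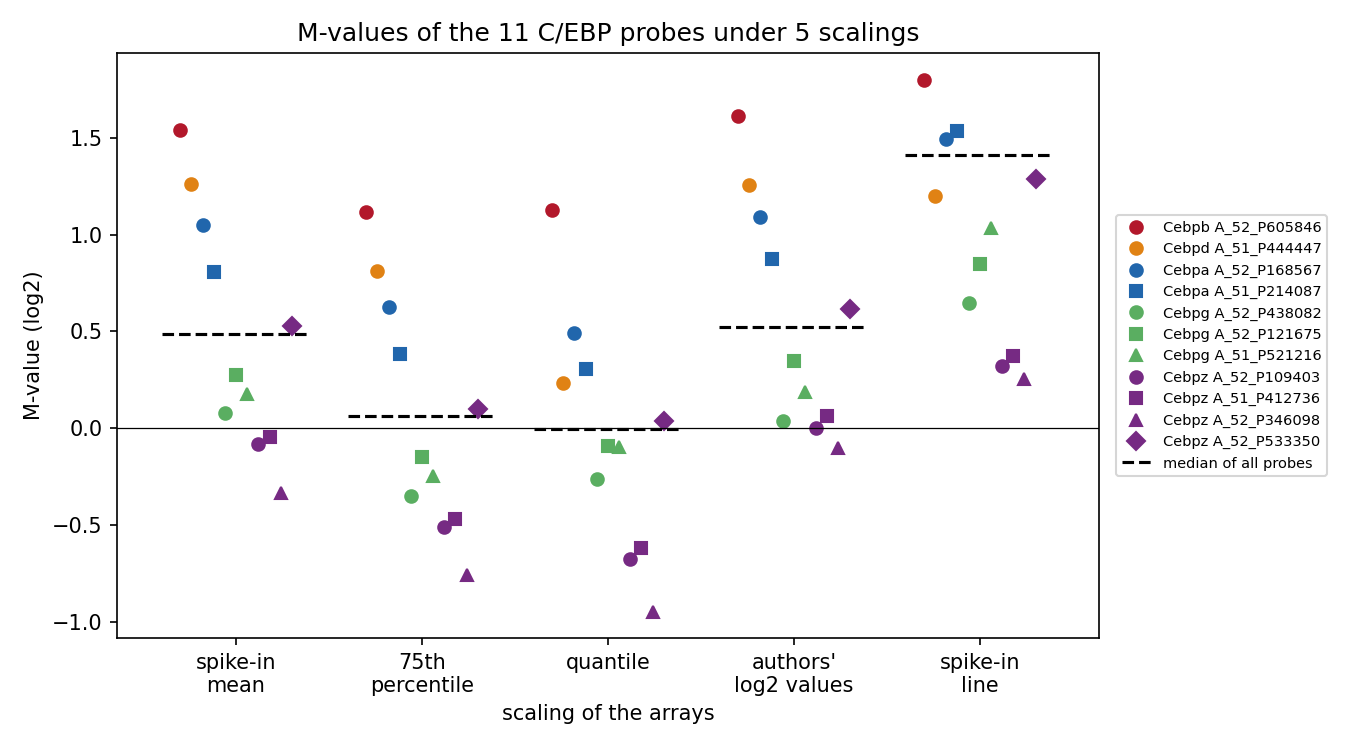
M-values (log2) of the 11 probes under 5 ways to scale the arrays, with the median of all probes as a dashed line. Cebpb lies at 1.54, 1.12, 1.13, 1.61 and 1.80 from left to right and above the median under each scaling. The Cebpg probes lie at or above 0.08 with the spike-in mean and below 0 with the 75th percentile and quantile normalization.

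Across the 12 arrays, the log2 signals of the brightest probes of Cebpa and Cebpd had a Pearson r of 0.99 (11 arrays), and those of Cebpa and Cebpz 0.97. For Cebpb the values with the other genes were lower, 0.54 with Cebpa, 0.58 with Cebpz and 0.35 with Cebpd, and for Cebpg they were negative, from -0.97 to -0.46. These correlations describe 12 arrays that share 4 group means and 1 scaling. The genes whose signals were most like that of Cebpb were Tmem120a, Spsb1 and Slc35e1 (r = 0.9985, 0.9982 and 0.9982). The mean log2 signal of Tmem120a was 12.51, 12.63, 14.15 and 15.17 in the order 0 h non-polysomal, 0 h polysomal, 6 h non-polysomal and 6 h polysomal. Those most like Cebpd were Slc39a11, Gusb and Man2b2 (r from 0.9997 to 0.9998 over 11 arrays), and those most like Cebpa were Actr3, Selenok and Pdlim1 (r from 0.9994 to 0.9997). For Cebpg they were Ttc32, Pradc1 and Ypel1 (r from 0.9947 to 0.995). For Cebpz they were Ube3a, Fzd1 and Hspa4 (r from 0.9984 to 0.9985).

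The lists that follow are read against the shares of all probes called, which were 19.2% above 1 and 5.01% below -1 in the polysomal pool, 8.09% and 8.14% in the non-polysomal pool, and 12.1% and 1.31% by M-value, and which moved with the scaling as given above. Other bZIP genes, related to the C/EBP family or able to pair with it, were measured by 5 probes of 4 genes. Nfil3, a bZIP repressor, rose by 3.49 and 3.96 in the polysomal pool and by 2.85 and 3.03 in the non-polysomal pool on its 2 probes. Ddit3 (CHOP), an inhibitor that pairs with C/EBP proteins, fell by 1.79 in the polysomal pool (adjusted p = 3.7e-08 by limma) and by 1.78 in the non-polysomal pool, which gave an M-value of -0.01 (adjusted p = 0.93). Atf4, a factor of the stress response, rose by 1.39 in the non-polysomal pool and had 0.02 in the polysomal pool (adjusted p = 0.89), so that its M-value was -1.37 (adjusted p = 5e-05 by limma). That sign of Atf4 held in all 5 other scalings and corrections listed for these genes, from -1.80 to -1.01. By M-value 0 of the 5 probes were called above 1 and 1 below -1. In the polysomal pool 2 were called above 1 and 1 below, and in the non-polysomal pool 3 and 1. With quantile normalization 2 were below -1 both by M-value and in the polysomal pool, and when a line was fitted through the spike-ins 1 was above 1 and 1 below by M-value.

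Of 14 probes of 8 factors known to act upstream of C/EBP genes, 2 were called above 1 and 3 below -1 in the polysomal pool, 1 and 6 in the non-polysomal pool, and 0 by M-value. The polysomal counts were 1 and 6 with the 75th percentile, 1 and 7 with quantile normalization and 5 and 1 when a line was fitted through the spike-ins, which also gave 5 above 1 by M-value. On the authors' log2 values and with normexp without spots of non-uniform background, the non-polysomal counts were 1 and 2. The shares of all probes above 1 and below -1 were then 5.02% and 3.95% on the authors' values, and 4.3% and 2.74% with that normexp. Klf5, an activator in early adipogenesis, rose by 4.11 in the polysomal pool and by 4.12 in the non-polysomal pool (adjusted p = 6.8e-10 and 1.7e-09 by limma). Nr3c1, the glucocorticoid receptor that binds dexamethasone, fell in the non-polysomal pool on all 4 probes, with values from -1.64 to -1.20. The values of 3 of these probes (A_51_P355693, A_52_P254174 and A_52_P63106) were -0.54, -0.67 and -0.96 on the authors' log2 values and -0.31, -0.38 and -0.71 with normexp without spots of non-uniform background. Its polysomal values were -1.65, -1.59, -1.43 and -0.57, with adjusted p from 3.1e-07 to 0.020. The value of -0.57 (A_51_P355693) turned to 0.16 with a line fitted through the spike-ins. The highest M-value of this list was 0.96 (a Stat5b probe, A_52_P53698, adjusted p = 0.0021 by limma), and the lowest was -0.31 (an Nr3c1 probe, adjusted p = 0.11).

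Among 20 probes of 12 genes whose proteins modify, assist or inhibit C/EBP proteins, 5 were called above 1 and 3 below -1 in the polysomal pool, 1 and 3 in the non-polysomal pool, and 4 and 0 by M-value. By M-value they were 1 and 1 with the 75th percentile and with quantile normalization, and 10 and 0 when a line was fitted through the spike-ins. The polysomal counts were then 3 and 6, 3 and 5, and 9 and 1. Trib1, a pseudokinase that directs C/EBPα to degradation, rose by 3.25 in the polysomal pool (adjusted p = 9.9e-09 by limma) and by 2.32 in the non-polysomal pool. Its relative Trib3 fell in the polysomal pool by 1.25 and 1.38 and in the non-polysomal pool by 2.22 and 1.91 on 2 probes. The highest M-value was 2.34 (adjusted p = 0.0034 by limma), on a Cdk2 probe (A_52_P651298) well above background on 7 arrays. Its 6 h non-polysomal mean was 2.02, under the lowest signals well above background on those arrays (2.89 to 3.09). The M-value of this probe was 1.06 on the authors' log2 values and 0.72 with normexp without spots of non-uniform background. The other Cdk2 probe, well above background on all 12 arrays, had 1.36 (adjusted p = 0.006). The lowest was -0.80 on an Ep300 probe (A_52_P411601, adjusted p = 0.0046 by limma), which turned to 0.05 with a line fitted through the spike-ins.

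All 12 probes of 7 genes that act on the translation of C/EBP or other mRNAs were well above background, and 9 were called above 1 in the polysomal pool, 4 in the non-polysomal pool and 0 by M-value, with none below -1. With the 75th percentile and quantile normalization 5 and 4 were above 1 in the polysomal pool and 1, that of Mtor (-1.21 and -1.32), was below -1 by M-value. When a line was fitted through the spike-ins 12 were above 1 in the polysomal pool and 8 by M-value. Zfp385a, an RNA-binding protein that acts on the Cebpa mRNA, rose by 1.52 and 1.56 in the polysomal pool and by 0.86 and 0.77 in the non-polysomal pool. Celf1, which binds the Cebpb mRNA, rose by 0.89 in the polysomal pool (adjusted p = 6.2e-04 by limma) and had 0.25 (adjusted p = 0.26) in the non-polysomal pool. Eif4e, the cap-binding factor, rose by 1.96 and 2.26 in the polysomal pool. The lowest polysomal rise of the list was 0.77, of Mtor, whose M-value was also the lowest at -0.79 (adjusted p = 6e-04 by limma). The highest M-value was 0.88, of Eif4ebp1 (A_52_P283674, adjusted p = 0.0047).

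Of 15 probes of 11 genes known as targets in adipocytes, 13 were above background in at least 1 group. Of these, 4 were called above 1 and 0 below -1 in the polysomal pool, 2 and 0 in the non-polysomal pool, and 3 and 0 by M-value. By M-value they were 1 and 2 with the 75th percentile, 1 and 3 with quantile normalization and 5 and 0 when a line was fitted through the spike-ins. Pparg had -0.05 in the polysomal pool (adjusted p = 0.64 by limma) and fell by 0.32 in the non-polysomal pool (adjusted p = 0.015). Scd1, a fatty acid desaturase, rose by 2.57 in the polysomal pool and had the highest M-value of the list, 1.68 (adjusted p = 5.1e-06 by limma). Plin1, which coats lipid droplets, fell by 0.91 in the polysomal pool (adjusted p = 1.1e-04). The lowest M-value was -0.78, of a Fasn probe (A_52_P100252, adjusted p = 7.7e-04), and Fasn rose in the non-polysomal pool by 1.49 and 1.86. The signs given here for Scd1 and Fasn held in the 5 other scalings and corrections, and so did that of Plin1. In the polysomal pool the counts of this list were 1 and 1 with the 75th percentile, 1 and 2 with quantile normalization and 7 and 0 when a line was fitted through the spike-ins.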

How the data were processed

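RNA of 3T3-L1 cells (0 h and 6 h, non-polysomal and polysomal) was hybridised by the authors to 12 one-color Agilent arrays. The deposited intensities came from Agilent's Feature Extraction software, version 10.7.1.1, which had subtracted and detrended the background of each spot without normalization between arrays. The authors also deposited log2 values, which equal the log2 median pixel of a probe plus a constant for each array. Precision rests on 3 arrays in each group and on the signal over background, and all C/EBP probes were well above background.

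From these files, spots marked as outliers were left out, log2 signals were averaged over the spots of a probe, and each array was shifted by the mean of 10 spike-in transcripts (32 spots each). Probes were named by accession through RefSeq, which gave 26690 of 41174 probes (64.8%) a symbol. All 12 arrays entered a single fit of the 4 groups in R 4.3.3 with limma 3.58.1 (lmFit, eBayes, Benjamini-Hochberg adjustment over all probes). Calls needed an adjusted p under 0.05 and a log2 difference beyond 1 in size. No pseudocount was added. P-values measure the spread between the replicates of this cell line. The limma fit of the M-value was tested on simulated log2 values, and the steps before the fit, scaling among them, were not.

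Named were all C/EBP probes, the 3 genes most like the brightest probe of each by Pearson r, and from each list the genes with the highest and lowest M-value and polysomal change, with Ddit3, Trib3, Pparg, Zfp385a and Celf1. The members and lists were chosen with earlier results of these data known. The alternatives were other scalings (75th percentile, quantile, a line fitted through the spike-ins), the log2 values of the authors, a normexp correction with an offset of 50 on the median pixel signals with and without spots of non-uniform background, outlier spots kept, dim probes left out, a trend in the prior variance, the replicate number as a block, and each array or slide left out in turn. The q-PCR, protein and gradient measurements were not analysed here.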

Additional observations from a re-analysis of the deposited data

Results flagged for a closer look

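The change over time differed between the polysomal and the non-polysomal pool for 5 of the 11 C/EBP probes, against 36.1% of all probes, by the interaction term of the limma fit (the M-value). For Cebpb it was 1.54 (adjusted p = 2.4e-05), with a rise in both pools. For Cebpd it was 1.26 (adjusted p = 1.3e-04), with changes of opposite sign in the pools under the spike-in mean. With quantile normalization its polysomal change was -0.32 and its M-value 0.23 (adjusted p = 0.088 by limma), so both pools fell. Its non-polysomal fall, with n = 2 at 0 h, passed the adjusted p in 13 of 25 alternative fits. For Cebpa it was 1.05 and 0.81 on its 2 probes (adjusted p = 1.4e-04 and 5.2e-04), with a polysomal rise on both. For 1 of the 4 Cebpz probes (A_52_P533350) it was 0.53 (adjusted p = 0.0076). That value was 0.10 with the 75th percentile and 0.04 with quantile normalization (adjusted p = 0.52 and 0.73 by limma), and did not pass without any 1 slide. The other 3 Cebpz probes had values from -0.33 to -0.04, none of which passed with the spike-in mean, whereas all 3 passed as negative with the 75th percentile (-0.76 to -0.47) and with quantile normalization (-0.95 to -0.62). The median over all probes was 0.49. The spike-in signals of the 6 h polysomal arrays were lower than those of the other arrays, and values under other scalings are given with each gene and with the alternatives.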

How the results depend on the processing

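Over 1375 combinations of a C/EBP probe, a comparison and an alternative, 1246 kept both direction and side of the threshold, 70 lost and 15 gained the adjusted p of 0.05, and 44 changed sign. Cebpb rose in both pools under all 25 alternatives (polysomal 3.71 to 4.59, non-polysomal 2.36 to 2.93, all adjusted p below 0.05), and its M-value was 1.12 to 1.80 and passed in 24 of 25. The cause of the changes below was not tested.

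The number of called probes by M-value (3) was 1 with the 75th percentile, 1 with quantile normalization, 6 with a line fitted through the spike-ins and 0 with normexp on all spots. In the last of these 0.245% of all probes were called above 1 and 0% below -1. The number for the polysomal pool over time (4) was 1, 1, 7 and 2 in the same order, while the shares of all probes called above 1 were 8.7%, 7.78%, 63.6% and 8.04%. With normexp on all spots the number was 1 in place of 2 for the non-polysomal pool, where 1.79% of all probes were called above 1 and 1.64% below -1. Between the pools at 0 h it was 4 in place of 9, against 8.54% and 3.8% of all probes. With normexp without spots of non-uniform background 5 in place of 9 were called at 0 h, against 18.4% and 4.79% of all probes. Between the pools at 6 h the number was 5 in place of 9 with the 75th percentile. Normexp on all spots put the SD of the background at 81.7 or more on 3 arrays against at most 1.20 on the other 9, and below 10 on all arrays once spots of non-uniform background were left out.

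With the 75th percentile the sign turned for the M-values of Cebpg (-0.35, -0.15 and -0.25), for 2 of its probes in the polysomal pool (A_52_P121675 -0.068, A_51_P521216 -0.28) and A_51_P521216 in the non-polysomal pool (-0.0309), and for Cebpb between the pools at 0 h (-0.73). With quantile normalization it turned for the M-values of Cebpg (-0.26, -0.0886 and -0.0945), for the same 2 probes in the polysomal pool (-0.0658 and -0.0801), for Cebpd in the polysomal pool (-0.32) and for Cebpb between the pools at 0 h (-0.76). With a line fitted through the spike-ins it turned for the M-values of 3 Cebpz probes (0.32, 0.37 and 0.25), for Cebpg in the polysomal pool (A_52_P438082, 0.26) and in the non-polysomal pool (A_51_P521216, -0.0953). On the authors' log2 values the M-values of 2 Cebpz probes were 0.0020 and 0.0649, and with normexp without spots of non-uniform background those of 3 were 0.0102, 0.0741 and 0.0201.

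With normexp on all spots the same 3 Cebpz M-values were 0.49, 0.60 and 1.33, the Cebpg probe A_52_P438082 had 0.31 in the polysomal pool, and A_51_P521216 had 1.12 between the pools at 6 h. In the non-polysomal pool this setting gave -0.30 and -0.90 for Cebpa, -0.13 and -0.71 for A_52_P121675 and A_51_P521216 of Cebpg and -0.99 for A_52_P533350 of Cebpz. Between the pools at 0 h it gave -0.19 for Cebpb, -0.29 for A_51_P214087 of Cebpa and -0.30 for A_52_P533350 of Cebpz.

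Leaving out arrays or slides in turn turned the sign of the M-values of Cebpz on A_52_P109403 (-0.20 to 0.0367) and A_51_P412736 (-0.17 to 0.11) and of the Cebpg probe A_51_P521216 in the non-polysomal pool (-0.0478 to 0.0821). Samples with the same replicate number shared a slide. Their deviations from the group means correlated by -0.09 to 0.42 (median 0.07). For samples with different numbers this was -0.38 to 0.20 (median -0.04). The main fit did not take the numbers as pairs, although both pools were made from each lysate. With the replicate block the counts of called probes stayed at 3, 4, 2, 9 and 9, and the polysomal fall of the Cebpg probe A_52_P438082 (-0.22) had an adjusted p of 0.057 in limma and no longer passed. No other C/EBP value changed its side of the adjusted p with the block. The limit of precision is the 3 arrays in each group, and no C/EBP probe was near background or saturation.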
